A study of Mus musculus with 2 samples.

Results

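Endothelial cells line the blood vessels of the brain, and their nuclei are described here in 2 single-nucleus RNA sequencing (snRNA-seq) libraries of mouse brain. A nucleus counted as endothelial when at least 3 of 7 endothelial genes (Flt1, Adgrl4, Slco1a4, Ptprb, Cyyr1, Egfl7 and Mecom) had a unique molecular identifier (UMI, 1 captured RNA molecule). At most 1 of 4 mural genes (Pdgfrb, Notch3, Abcc9 and Myh11) and at most 1 of 6 genes of other cell types (Mog, Pdgfra, Csf1r, Aqp4, Slc17a7 and Gad2) could be detected. After barcodes with fewer than 500 genes or with more than 5% of UMIs from mitochondrial genes were set aside, 1191 of 26705 nuclei met this rule. The WBRT-28d library came from C57BL/6 mice given whole-brain irradiation as 5 fractions of 2 Gy and killed 28 days later, and held 886 of the endothelial nuclei. The ShamRT-28d library came from mock-irradiated C57BL/6 mice, which the sample labels call untreated, and held 305. Each library was 1 pool of nuclei from the frozen whole brains of 2 mice, and the nuclei cannot be assigned to a mouse. With 1 library per condition no test between conditions was possible, so every interval below is an exact 95% interval that covers counting error only, and the spread between mice was not measured.

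Brain endothelial cells differ from those of most organs. They are sealed to each other by tight junctions, form few vesicles, and carry transporters that feed the brain or pump compounds back into the blood, which together make the blood-brain barrier. This state is maintained by Wnt signals from the tissue and by contact with pericytes, the mural cells of capillaries. Along the vessel tree the cells also differ, with arterial genes under Notch signals at one end, transporter-rich capillaries between, and veins, where leukocytes attach, at the other end.

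The libraries differed in ways that touch the comparisons. The WBRT-28d library held 15986 barcodes and 68423922 UMIs, and the ShamRT-28d library 11469 barcodes and 45511469 UMIs. The lowest UMI count of a barcode was 1238 in WBRT-28d and 884 in ShamRT-28d. The minimum of 500 genes left out 0 barcodes of WBRT-28d and 326 of ShamRT-28d. The libraries shared 43 barcodes, of which 0 were endothelial in both. Endothelial nuclei had a median of 2006 UMIs (range 1238 to 31473) and 1244 genes in WBRT-28d, against 1581 UMIs (884 to 22597) and 1012 genes in ShamRT-28d, so that their summed UMIs were 2651668 in WBRT-28d and 708639 in ShamRT-28d. The doublet caller Scrublet marked 142 of the WBRT-28d endothelial nuclei (16%) and 33 of those of ShamRT-28d (10.8%).

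RNA of other cells was present in the endothelial nuclei of both libraries. The summed level of 8 neuron genes in them was 67.0% of the level in the whole library in WBRT-28d and 48.0% in ShamRT-28d. Nuclei of mature oligodendrocytes, the myelin-forming glia, showed 69.0% in WBRT-28d and 40.3% in ShamRT-28d, mural nuclei 51.6% in WBRT-28d, against 30.5% in ShamRT-28d, and fibroblast-like nuclei 41.3% in WBRT-28d and 26.8% in ShamRT-28d. Neuron RNA was therefore higher in WBRT-28d in each of these 4 classes. Foreign RNA lowers the proportion of every endothelial gene, so medians and counts are given for most lists both as counted and with predicted free RNA subtracted, and the part of free RNA in any single difference was not tested.

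The genes of the rule are described without a test, because they chose the nuclei. Flt1, a receptor for vascular endothelial growth factor (VEGF), was detected in 93.3% of the endothelial nuclei of WBRT-28d and 90.8% of those of ShamRT-28d, at 2928 UMIs per 1000000 (CPM) in WBRT-28d and 3793 CPM in ShamRT-28d. The adhesion receptor Adgrl4 was detected in 81.4% (WBRT-28d) and 81.3% (ShamRT-28d), the barrier transporter Slco1a4 in 87.5% (WBRT-28d) and 83.9% (ShamRT-28d), and the phosphatase Ptprb, which acts on the receptor Tek, in 74.4% (WBRT-28d) and 75.7% (ShamRT-28d). Egfl7, a matrix protein secreted by endothelium, was found in 73.5% (WBRT-28d) and 71.5% (ShamRT-28d), the transcription regulator Mecom in 84.0% (WBRT-28d) and 82.6% (ShamRT-28d), and Cyyr1 in 62.0% (WBRT-28d) and 58.4% (ShamRT-28d). In oligodendrocyte nuclei, whose median depth was higher (3013 UMIs in WBRT-28d and 2692.5 in ShamRT-28d), Flt1 was found in 7.97% (WBRT-28d) and 1.89% (ShamRT-28d), and Adgrl4 in 2.66% (WBRT-28d) and 0.902% (ShamRT-28d). All 7 genes were detected in 264 nuclei of WBRT-28d and 82 of ShamRT-28d, 6 in 258 of WBRT-28d and 82 of ShamRT-28d, 5 in 167 of WBRT-28d and 64 of ShamRT-28d, 4 in 104 of WBRT-28d and 43 of ShamRT-28d, and the minimum of 3 in 93 of WBRT-28d and 34 of ShamRT-28d.

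The label was checked with Pecam1, the adhesion molecule CD31 of endothelial junctions, which the rule did not use. Pecam1 had 863 UMIs in 52.8% of the endothelial nuclei of WBRT-28d and 298 UMIs in 51.1% of those of ShamRT-28d, against 3.01% (WBRT-28d) and 1.22% (ShamRT-28d) of oligodendrocyte nuclei. With 7 rule genes its share was 68.2% in WBRT-28d, against 64.6% in ShamRT-28d, and with the minimum of 3 it was 12.9% in WBRT-28d and 29.4% in ShamRT-28d. Just outside the rule, 332 nuclei of WBRT-28d and 87 of ShamRT-28d had 2 of the endothelial genes, and Pecam1 was found in 4.52% (WBRT-28d) and 3.45% (ShamRT-28d) of them. Of 28 further endothelial genes, among them Cdh5, Cldn5, Tek, Tie1 and Erg, at least 5 were detected in 91.1% of the WBRT-28d and 92.1% of the ShamRT-28d endothelial nuclei, and in 6.54% (WBRT-28d) and 1.53% (ShamRT-28d) of oligodendrocyte nuclei. The endothelial label therefore held for most of these nuclei, while those with 3 rule genes had the least endothelial RNA. They held 27.5 UMIs of the 28 genes per 10000 UMIs in WBRT-28d and 35.4 in ShamRT-28d, against 121 in WBRT-28d and 146 in ShamRT-28d in those with 7.

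The factors Erg, Fli1 and Ets1 of the ETS family are central regulators of endothelial genes, and they bind a core that reads GGAA. RefSeq promoters were therefore searched, after the expression values were known, for the letters CAGGAAG or CCGGAAG on both strands in the 250 bases before each start (build GRCm38.p6). Of all 32851 windows, 17% held a match, and of the 30 windows found for the rule and identity genes (23 of 35 genes matched), 8 did (26.7%), in Adgrf5, Cyyr1, Egfl7, Emcn, Erg, Itm2a and Robo4. The matches are a description of letters and not of binding. Egfl7 and Erg are printed because one chose the nuclei and the other is the ETS factor whose level differed most below, with the matches in capitals. The Egfl7 window (chr2:26580833-26581055, plus strand) and the Erg window (chr16:95459349-95459598, minus strand) precede starts that lie in introns of longer transcripts, and the first leaves out bases next to the start that are exonic. The Egfl7 matches begin 90 and 49 bases before the start, and that of Erg 40 bases before it.
Egfl7: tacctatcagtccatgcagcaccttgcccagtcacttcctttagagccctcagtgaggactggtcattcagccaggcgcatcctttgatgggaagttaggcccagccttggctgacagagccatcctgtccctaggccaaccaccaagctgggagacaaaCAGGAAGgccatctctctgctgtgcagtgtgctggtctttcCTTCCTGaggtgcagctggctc
Erg: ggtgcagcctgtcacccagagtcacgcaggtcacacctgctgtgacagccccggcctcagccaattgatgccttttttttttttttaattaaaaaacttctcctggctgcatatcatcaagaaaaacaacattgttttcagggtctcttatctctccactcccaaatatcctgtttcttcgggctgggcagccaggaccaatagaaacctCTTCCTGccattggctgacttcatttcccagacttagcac

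Endothelial nuclei made up 5.65% of the WBRT-28d library (886 of 15668 nuclei, 5.30 to 6.03) and 2.76% of the ShamRT-28d library (305 of 11037, 2.47 to 3.09), a ratio of 2.05 (1.79 to 2.34). The ratio exceeded 1 at each number of detected rule genes. It was 1.93 (1.29 to 2.94) for nuclei with 3 genes, 1.70 for 4, 1.84 for 5, 2.22 for 6 and 2.27 (1.76 to 2.94) for all 7. With doublets left out it was 2.01, and with every nucleus thinned to 1000 UMIs, which left out 515 nuclei of ShamRT-28d, 5.34% of WBRT-28d and 2.40% of ShamRT-28d nuclei were endothelial (ratio 2.22). When no UMI of the mural and other-type genes was allowed, 472 nuclei of WBRT-28d and 209 of ShamRT-28d remained and the ratio was 1.59. When nuclei below the lowest UMI count of WBRT-28d were left out of ShamRT-28d, 203 of its endothelial nuclei remained and the ratio was 2.59.

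Other classes did not all share this difference. Mural and fibroblast-like nuclei are vascular and were chosen by the same kind of rule. Oligodendrocyte nuclei are not vascular, and the limit of 1 other-type gene did not hold for them. Mog was detected in 89.0% and Slc17a7 in 17.1% of them for WBRT-28d (91.5% and 11.6% for ShamRT-28d), so some held both. Nuclei mixed with other cell types may be among them, which makes them only a rough reference for foreign RNA. Mural nuclei made up 2.44% of WBRT-28d and 1.45% of ShamRT-28d (ratio 1.68, 1.39 to 2.04), fibroblast-like nuclei 0.945% of WBRT-28d and 0.870% of ShamRT-28d (1.09, 0.834 to 1.42), and oligodendrocyte nuclei 16.1% of WBRT-28d and 20.1% of ShamRT-28d (0.801, 0.757 to 0.849). There were 2.32 endothelial nuclei per mural nucleus in WBRT-28d and 1.91 in ShamRT-28d. A share depends on every other class in the library, so that more endothelial nuclei and fewer nuclei of other types cannot be told apart, nor can a difference between the brains and one between 2 nuclear preparations.

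**Figure D1:**
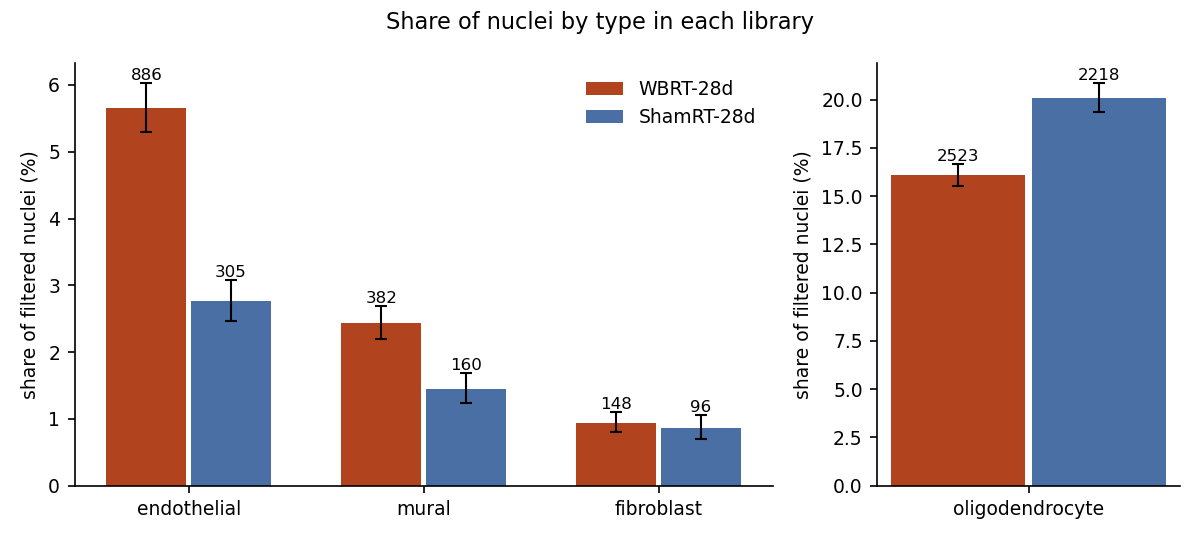
Percent of filtered nuclei (y axis) in the endothelial, mural, fibroblast-like and oligodendrocyte classes of the WBRT-28d and ShamRT-28d libraries, with exact 95% intervals for counting error. Endothelial nuclei made up 5.65% of WBRT-28d and 2.76% of ShamRT-28d.

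The endothelial nuclei of WBRT-28d carried a smaller proportion of endothelial RNA. The 28 identity genes had a median of 117 UMIs per 10000 UMIs per nucleus in WBRT-28d (quartiles 54.2 and 177) and 169.3 in ShamRT-28d (90.8 and 221), and the median nucleus had 12 of the 28 genes detected in both libraries. Depth moved with this measure. The 147 WBRT-28d nuclei above 4000 UMIs (16.6%, holding 43.2% of the UMIs) and the 31 such ShamRT-28d nuclei (10.2%, holding 35.6%) had, when pooled, 32.8 identity UMIs per 10000 in WBRT-28d and 33.8 in ShamRT-28d. Below that depth the libraries differed within the same range of UMIs. Between the lowest WBRT-28d count and 2000 UMIs, the pooled value was 153 in 440 nuclei of WBRT-28d and 183 in 102 of ShamRT-28d, and over 2000 to 4000 UMIs it was 107 in 299 nuclei of WBRT-28d and 139.7 in 70 of ShamRT-28d. The deep nuclei of both libraries thus had the lowest proportion of endothelial RNA, and the part of doublets in this was not tested.

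**Figure D2:**
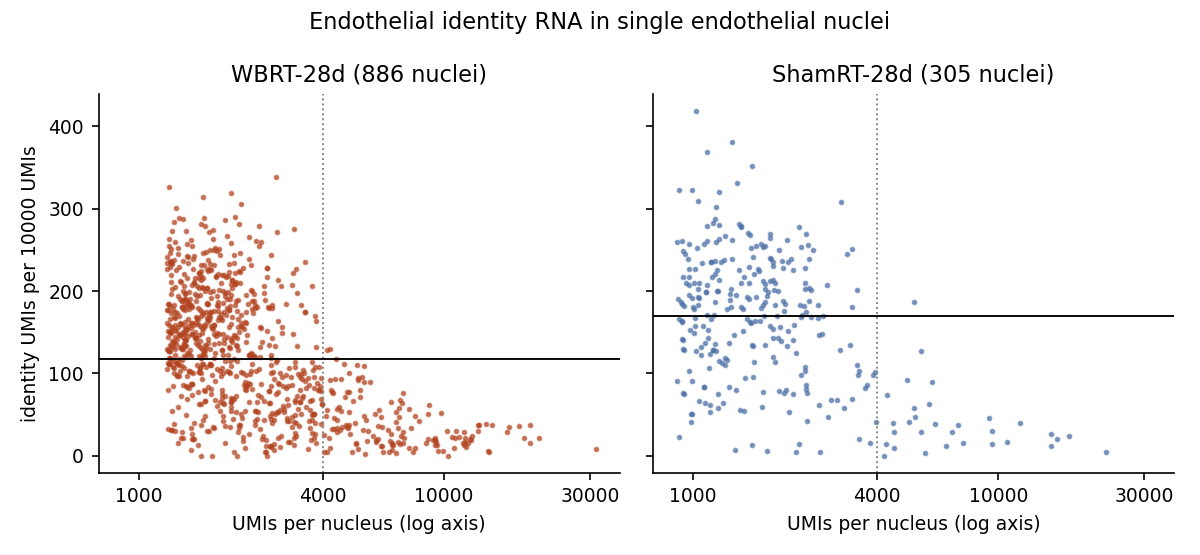
Each point is 1 endothelial nucleus, with its UMI count on a log x axis and its UMIs of the 28 identity genes per 10000 on the y axis, for WBRT-28d (886 nuclei) and ShamRT-28d (305). The medians were 117 in WBRT-28d, against 169.3 in ShamRT-28d, and nuclei above 4000 UMIs lay low in both libraries.

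Across all genes, CPM in WBRT-28d was divided by CPM in ShamRT-28d. Of 8944 genes with at least 50 UMIs, 10.6% were at least 1.5-fold higher in WBRT-28d (945 genes) and 8.23% at least 1.5-fold lower (736), with a median log2 ratio of -0.01. At the minimum of 20 UMIs used for gene lists the shares were 13.6% higher and 11.2% lower, over 11894 genes. Of the 11894 genes, 7787 reached the CPM of the whole library in the library where they were higher. Among those 7787, 661 were higher and 1222 lower, with a median log2 ratio of -0.14. Counts for lists as counted are to be read against these shares and counts. With predicted free RNA subtracted, both counts at 50 UMIs stayed within 1.5-fold of those as counted. The genes were then chosen again by their subtracted UMIs, whereas list genes were chosen by UMIs as counted. List counts with free RNA subtracted therefore have no matching share over all genes here. Scaled to the identity genes, 3279 of 8944 genes were higher and 122 lower, so list counts under that scaling have another background.

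None of the 28 identity genes was 1.5-fold higher in WBRT-28d and 6 were 1.5-fold lower, and the interval lay below 1 for 21 and above 1 for 0. As counted, they had 8684 CPM in WBRT-28d and 11878 CPM in ShamRT-28d, a ratio of 0.731 (0.713 to 0.750). The 6 genes were Slc2a1, the glucose transporter of the barrier, at 291 CPM in WBRT-28d and 548 CPM in ShamRT-28d (0.531, 0.469 to 0.602), Erg at 189 CPM in WBRT-28d and 316 CPM in ShamRT-28d (0.599, 0.511 to 0.704), Vwf, the von Willebrand factor of blood clotting, at 199 CPM in WBRT-28d and 330 CPM in ShamRT-28d (0.604), the lipid transfer protein Pltp (0.625), the TGF-beta coreceptor Eng (0.653), and Abcb1a, the efflux pump P-glycoprotein, at 461 CPM in WBRT-28d and 699 CPM in ShamRT-28d (0.660). The adhesion genes were nearer to 1, with Cdh5, the cadherin of endothelial junctions, at 0.732, Cldn5, their main claudin, at 0.748, and Pecam1 at 0.774. The ETS factors Fli1 and Ets1 were nearer to 1 than Erg. Ets1 was at 0.882 (0.757 to 1.03). Fli1 had 2075 UMIs (783 CPM) in WBRT-28d and 570 UMIs (804 CPM) in ShamRT-28d, and its ratio of 0.973 (0.886 to 1.07) did not differ from 1 beyond counting error.

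The direction for the identity genes turned when predicted free RNA was subtracted. That step removes 67.0% of each gene's whole-library level for WBRT-28d, against 48.0% for ShamRT-28d. Of the identity genes' own CPM it took a median of only 5.80% (WBRT-28d) or 1.60% (ShamRT-28d). Less of the total is then left for WBRT-28d, which raises the ratio of any gene scarce in the library. The turn is therefore built into the step, and the part of free RNA in it was not tested. Their median log2 ratio was -0.45 as counted, -0.38 without nuclei above 4000 UMIs and -0.27 without nuclei below the lowest WBRT-28d count, but 0.11 with predicted free RNA subtracted, where 0 of the 28 were 1.5-fold higher and 0 were 1.5-fold lower. After free RNA was subtracted Pecam1 was at 1.15, Cldn5 at 1.10 and Abcb1a at 0.979, while Slc2a1 stayed at 0.773, and across 11 alternatives Slc2a1 ranged from 0.511 to 0.773. Relative to the summed identity genes, Slc2a1 was at 0.726 and Erg at 0.819. The share of endothelial nuclei with a UMI of Slc2a1 was 49.2% in WBRT-28d and 57.0% in ShamRT-28d, although the nuclei of WBRT-28d were deeper.

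**Figure D3:**
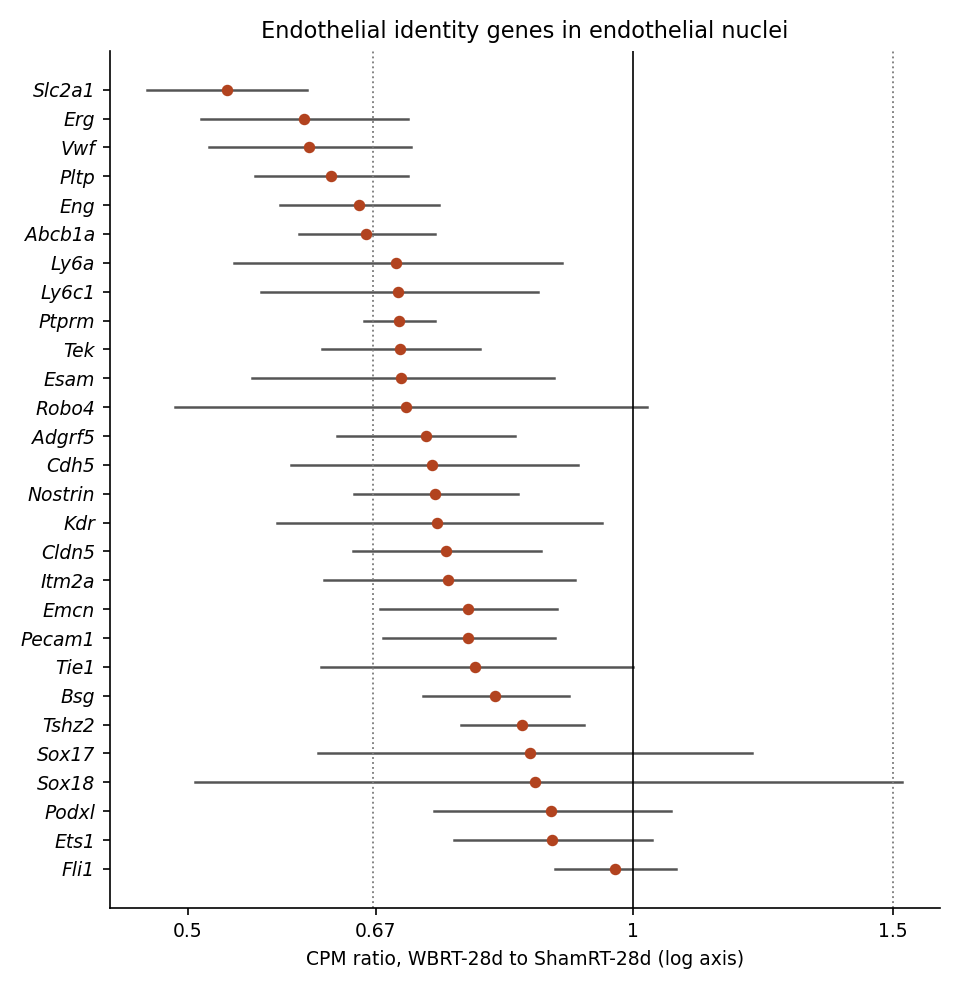
Ratio of CPM in WBRT-28d to CPM in ShamRT-28d (log axis) for the identity genes in endothelial nuclei, with exact 95% intervals for counting error. Slc2a1 (0.531) lay lowest and Fli1 (0.973) highest, and 21 of 28 intervals lay below 1.

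Transporters of the blood-brain barrier were mostly lower in WBRT-28d as counted. Of 25 measured, 1 was 1.5-fold higher and 5 were 1.5-fold lower, with a median log2 ratio of -0.39 as counted. Once free RNA was subtracted, 1 was higher and 1 was lower, with a median of 0.13. Besides Slc2a1 and Abcb1a, those past 1.5-fold were Slc38a5, a glutamine transporter (20.4 CPM in WBRT-28d and 39.5 CPM in ShamRT-28d, 0.515, and 0.403 to 0.794 over the alternatives), Slco2b1, an organic anion transporter (144 CPM in WBRT-28d and 244 CPM in ShamRT-28d, 0.592), and the zinc exporter Slc30a1 (0.632). Mfsd2a, which carries omega-3 lipids and restrains transcytosis, was at 0.673 (0.485 to 0.947), the transferrin receptor Tfrc at 0.716, the efflux pump Abcg2 at 0.741, and the thyroid hormone transporter Slco1c1 at 0.762 (736 CPM in WBRT-28d and 967 CPM in ShamRT-28d). The taurine transporter Slc6a6 (0.945), the efflux pump Abcc4 (0.957) and the thiamine transporter Slc19a3 (0.985) had intervals that held 1. The single higher gene, Abcb1b, rested on 36 UMIs in WBRT-28d and 3 UMIs in ShamRT-28d (3.21, 1.01 to 16.3). It was found in 3.72% of endothelial nuclei in WBRT-28d and 0.984% in ShamRT-28d, against 5.59% of oligodendrocyte nuclei in WBRT-28d and 4.19% in ShamRT-28d.

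Of 21 junction genes 0 were 1.5-fold higher and 5 were 1.5-fold lower, with a median log2 ratio of -0.36 as counted. With free RNA subtracted 0 were higher and 1 was lower, with a median of 0.03. The lower ones included the catenin Ctnnd1 (44 UMIs in WBRT-28d and 26 UMIs in ShamRT-28d, 0.452), the junctional adhesion molecules Jam2 (124 CPM in WBRT-28d and 223 CPM in ShamRT-28d, 0.558) and F11r (0.586), and the tight junction protein Ocln (158 CPM in WBRT-28d and 243 CPM in ShamRT-28d, 0.649). Jam2 ranged from 0.515 to 0.763 over the alternatives. The scaffold Tjp1, with the most UMIs of the list, had 3297 UMIs in WBRT-28d and 1026 UMIs in ShamRT-28d and a ratio of 0.859 (0.80 to 0.922). Cdh2, the cadherin shared with mural cells and neurons, was at 1.24 (1.04 to 1.49), and was detected in 36.3% of endothelial nuclei in WBRT-28d and 24.3% in ShamRT-28d against 51.1% of oligodendrocyte nuclei in WBRT-28d and 59.5% in ShamRT-28d. Of 9 genes of caveolae and transcytosis, Cav1, the coat protein of caveolae, was at 0.935 (0.714 to 1.24). The caveolar protein Sdpr was at 0.510 (0.376 to 0.698), and Picalm, a clathrin adaptor of barrier transcytosis, at 1.3 (1.1 to 1.56).

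Among 21 genes of VEGF, angiopoietin and related vascular signals, 3 were 1.5-fold higher and 5 were 1.5-fold lower, with a median log2 ratio of -0.33 as counted. After free RNA was subtracted the balance turned to 7 higher and 2 lower (median 0.12). Relative to the identity genes it was 6 higher and 1 lower, a scaling under which 3279 of 8944 genes were higher and 122 lower. S1pr1, the receptor through which sphingosine 1-phosphate tightens endothelial junctions, stood apart from the list. It had 261 UMIs (98.4 CPM) in 23.1% of the endothelial nuclei of WBRT-28d and 165 UMIs (233 CPM) in 37.0% of those of ShamRT-28d, a ratio of 0.423 (0.347 to 0.517). In oligodendrocyte nuclei the order was the reverse, with S1pr1 in 7.33% of nuclei in WBRT-28d and 3.29% in ShamRT-28d. The endothelial ratio stayed between 0.363 and 0.578 under all 11 alternatives. Next came the ligand Vegfc (118 CPM in WBRT-28d and 226 CPM in ShamRT-28d, 0.523), the adrenomedullin receptor subunits Calcrl (0.574) and Ramp2 (0.657), and the coreceptor Nrp2 (0.611). The main VEGF receptor Kdr was at 0.737 (0.575 to 0.953), the angiopoietin receptor Tek at 0.696, the nitric oxide synthase Nos3 at 0.719, and the pericyte growth factor Pdgfb at 1.25 (0.959 to 1.66). The 3 higher genes, Angpt1, Mcam and Vegfb, had at most 73 UMIs in WBRT-28d and 11 UMIs in ShamRT-28d, with intervals that held 1.

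Of 20 genes of Wnt signalling, which maintains the barrier, 1 was 1.5-fold higher and 1 was 1.5-fold lower, with a median log2 ratio of -0.21 as counted. Once free RNA was subtracted, 2 were higher and 0 were lower, with a median of 0.33. The transcription factor Lef1 had 834 CPM in WBRT-28d and 1153 CPM in ShamRT-28d (0.723, 0.667 to 0.785) and the feedback inhibitor Notum 27.9 CPM in WBRT-28d and 50.8 CPM in ShamRT-28d (0.549). The target genes Axin2 (1.04), Apcdd1 (0.931) and Nkd1 (0.954) and the receptor Fzd4 (1.07) had intervals that held 1. The coreceptor Lrp6 was at 1.51 (1.19 to 1.95) as counted and 0.921 when nuclei were thinned. In Notch signalling, 1 of 14 genes was higher and 3 were lower (median log2 ratio -0.11), against 4 higher and 2 lower with free RNA subtracted (0.29). The ligand Jag1 was at 0.633 (0.429 to 0.951) and between 0.580 and 1.0 under the alternatives, Dll4 at 0.627 (0.379 to 1.07) and the target Hes1 at 1.82 (1.09 to 3.24). In TGF-beta and BMP signalling, 2 of 20 were higher and 2 were lower (median -0.19), against 3 higher and 1 lower of 19 with free RNA subtracted (0.22). The ligand Tgfb2 was at 0.590 (0.465 to 0.752).

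As counted, the lists of vessel segments held more lower genes than the background share. Of 18 arterial genes 0 were higher and 9 were lower (median log2 ratio -0.58), of 13 venous genes 0 were higher and 8 were lower (-0.80), and of 11 capillary genes 0 were higher and 3 were lower (-0.48). With free RNA subtracted the arterial genes had 2 higher and 3 lower, the venous genes 1 higher and 4 lower, and the capillary genes 1 higher and 0 lower. Relative to the identity genes the arterial genes had 3 higher and 2 lower and the venous genes 1 higher and 4 lower. Under that scaling 3279 of 8944 genes were higher and 122 lower. After free RNA was subtracted the medians were -0.12, -0.38 and 0.05, and relative to the identity genes -0.13, -0.35 and -0.03, so that the arterial and venous medians kept their sign in both and the capillary median did not. Among arterial genes, Gkn3 had 35.8 CPM in WBRT-28d and 87.5 CPM in ShamRT-28d (0.409, 0.294 to 0.573), the calcification inhibitor Mgp 65.2 CPM in WBRT-28d and 138 CPM in ShamRT-28d (0.472), the kinase Bmx 71.3 CPM in WBRT-28d and 141 CPM in ShamRT-28d (0.505), the vasoconstrictor Edn1 39.2 CPM in WBRT-28d and 73.4 CPM in ShamRT-28d (0.534), and the elastic fibre protein Fbln5 34.3 CPM in WBRT-28d and 57.9 CPM in ShamRT-28d (0.593). The arterial transcription factor Sox17 was at 0.852 (0.612 to 1.2), and the ligands Efnb2 (1.10) and Jag2 (1.34) had intervals that held 1.

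Among venous genes, the interleukin 1 receptor Il1r1 had 409 UMIs (154 CPM) in 16.7% of the endothelial nuclei of WBRT-28d and 213 UMIs (301 CPM) in 23.9% of those of ShamRT-28d, a ratio of 0.513 (0.434 to 0.608). The chemokine-binding receptor Ackr1 was at 0.338 (24 UMIs in WBRT-28d and 19 UMIs in ShamRT-28d) and Tmem252 at 0.323 (29 UMIs in WBRT-28d and 24 UMIs in ShamRT-28d). Vcam1, which binds leukocyte integrins, was at 0.692 (0.544 to 0.886) and the venous transcription factor Nr2f2 at 1.3 (0.880 to 1.98). In the capillary list, the matrix protein Hmcn1 had 601 CPM in WBRT-28d and 1041 CPM in ShamRT-28d (0.577), the carbonic anhydrase Car4 83.0 CPM in WBRT-28d and 137 CPM in ShamRT-28d (0.606), and the chemokine Cxcl12, one of the secreted factors named by the study, 200.3 CPM in WBRT-28d and 305 CPM in ShamRT-28d (0.657, 0.560 to 0.773). Cxcl12 was found in 31.5% of endothelial nuclei in WBRT-28d and 28.9% in ShamRT-28d. Its ratio was 0.956 with free RNA subtracted.

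Nuclei with UMIs of at least 2 genes of a segment were also counted at equal depth. The genes were Bmx, Gkn3, Sema3g, Efnb2, Vegfc and Gja5 for arteries, Mfsd2a, Tfrc, Slc16a1 and Rgcc for capillaries, and Nr2f2, Vwf, Slc38a5 and Vcam1 for veins. After thinning to 1000 UMIs, 6.88% of 886 endothelial nuclei of WBRT-28d were arterial by this measure (5.31 to 8.76) and 11.6% of 268 of ShamRT-28d (8.0 to 16). Venous nuclei were 5.30% in WBRT-28d (3.92 to 6.99) and 10.1% in ShamRT-28d (6.74 to 14.3), and capillary nuclei 5.76% in WBRT-28d (4.32 to 7.50) and 5.60% in ShamRT-28d (3.17 to 9.06). The arterial and venous shares were thus lower in WBRT-28d, although the intervals of both overlapped, and the capillary shares were close. Before thinning the shares were 13.3% in WBRT-28d and 18.7% in ShamRT-28d for arterial, 12.8% in WBRT-28d and 15.4% in ShamRT-28d for venous, and 14.7% in WBRT-28d and 14.1% in ShamRT-28d for capillary nuclei. In oligodendrocyte nuclei no thinned share exceeded 0.396%. Since several of these genes were themselves lower in WBRT-28d, fewer nuclei of a segment and less RNA of its genes per nucleus cannot be told apart.

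**Figure D4:**
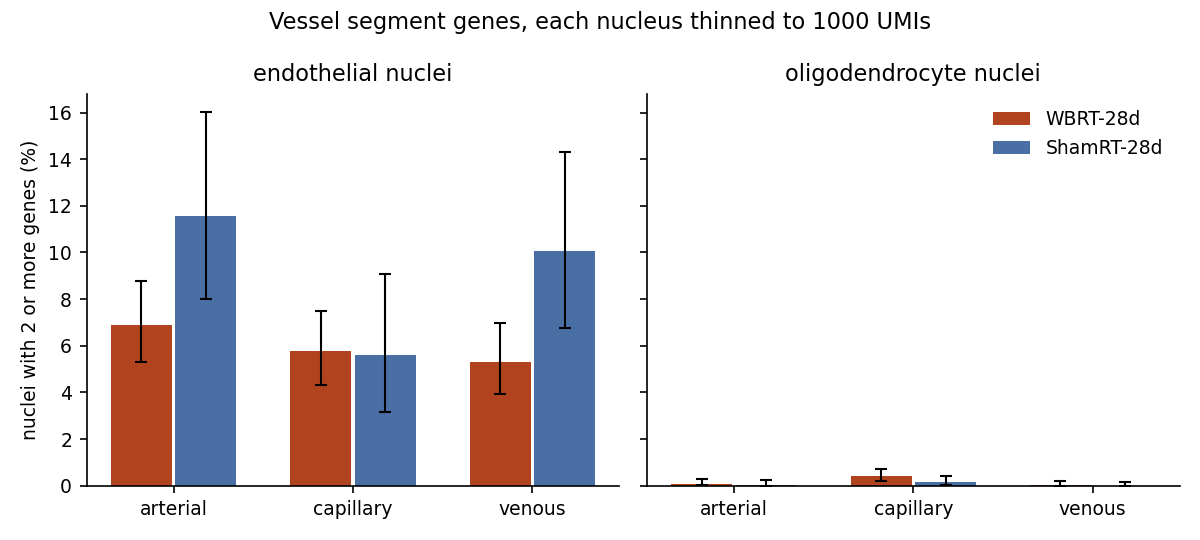
Percent of endothelial nuclei (y axis) with at least 2 of the arterial, capillary or venous genes after thinning to 1000 UMIs, in WBRT-28d and ShamRT-28d, with exact 95% intervals. Arterial nuclei were 6.88% in WBRT-28d, against 11.6% in ShamRT-28d, and venous nuclei 5.30% in WBRT-28d and 10.1% in ShamRT-28d.

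Genes that were not used to select them separated these nuclei. In the 93 arterial nuclei of WBRT-28d and 44 of ShamRT-28d that shared no venous call, Il1r1 was at 26.9 CPM in WBRT-28d and 15.9 CPM in ShamRT-28d. In the 88 venous nuclei of WBRT-28d and 34 of ShamRT-28d with no arterial call it was at 612 CPM in WBRT-28d and 1029.6 CPM in ShamRT-28d. Fbln5 was at 111 CPM in WBRT-28d and 215 CPM in ShamRT-28d in arterial nuclei, and Mgp at 175 CPM in WBRT-28d and 342 CPM in ShamRT-28d in arterial nuclei and 64.1 CPM in WBRT-28d and 68.6 CPM in ShamRT-28d in venous nuclei. The difference between the libraries for Il1r1 was therefore also present within the venous nuclei, and that for Mgp and Fbln5 within the arterial ones. It was not particular to Il1r1, since Cldn5, Pecam1, Slc2a1 and Abcb1a were also lower in the venous nuclei of WBRT-28d. There Cldn5 was at 237 CPM in WBRT-28d and 522 CPM in ShamRT-28d, and Pecam1 at 356 CPM in WBRT-28d and 549 CPM in ShamRT-28d. Slco1c1 went the other way, at 490 CPM in WBRT-28d and 384 CPM in ShamRT-28d. Both segment calls were held by 25 nuclei of WBRT-28d and 13 of ShamRT-28d.

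Of 12 genes of leukocyte adhesion and NF-kB signalling, 1 was 1.5-fold higher and 4 were 1.5-fold lower, with a median log2 ratio of -0.12 as counted. Once free RNA was subtracted, 1 was higher and 1 was lower, with a median of 0.28. Icam1, a ligand of leukocyte integrins, had 53 UMIs in 4.18% of nuclei in WBRT-28d and 15 UMIs in 3.61% in ShamRT-28d (0.944, 0.524 to 1.80), and Icam2 was at 0.94. The inhibitor Nfkbia, itself a target of NF-kB, had 51.7 CPM in WBRT-28d and 98.8 CPM in ShamRT-28d (0.523, 0.389 to 0.708) and ranged from 0.504 to 0.735 over the alternatives. The higher gene, the tumor necrosis factor receptor Tnfrsf1a, had 29 UMIs in WBRT-28d and 5 UMIs in ShamRT-28d and an interval of 0.593 to 5.13. Of 34 genes of the interferon response and antigen presentation, 4 were higher and 9 were lower, with a median log2 ratio of -0.37 as counted. With free RNA subtracted 5 were higher and 3 were lower, with a median of 0.10. The nonclassical class I gene H2-T23 was at 0.477 (34.3 CPM in WBRT-28d and 72.0 CPM in ShamRT-28d), Xaf1 at 0.456, Bst2, which tethers viruses, at 0.523, and the receptor subunit Ifngr1 at 0.527. H2-K1, H2-D1 and B2m, the parts of classical class I molecules, were at 0.714, 0.741 and 0.758 as counted, and H2-K1 and H2-D1 at 1.01 and 1.06 with free RNA subtracted. The transcription factor Irf1 was higher, with 66 UMIs in 7.0% of endothelial nuclei in WBRT-28d and 8 UMIs in 2.62% in ShamRT-28d (2.20, 1.06 to 5.32), against 1.90% of oligodendrocyte nuclei in WBRT-28d and 0.766% in ShamRT-28d.

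Genes of the radiation response were examined next, because the study asks which brain cells become senescent after irradiation. Cdkn1a, which encodes the p53-induced cell cycle inhibitor p21, was detected in 22 of 886 endothelial nuclei of WBRT-28d (2.48%, 1.56 to 3.74) and 7 of 305 of ShamRT-28d (2.30%, 0.928 to 4.67), with a CPM ratio of 0.768 (0.332 to 1.99). In oligodendrocyte nuclei the shares were 1.43% in WBRT-28d and 0.496% in ShamRT-28d. Cdkn2a, which encodes p16, had 0 UMIs in both libraries, which at a limit of 3 counts allows a share of endothelial nuclei with a UMI of up to 0.339% in WBRT-28d and 0.984% in ShamRT-28d. Trp53 had 69 UMIs in 7.56% of nuclei in WBRT-28d and 10 UMIs in 2.95% in ShamRT-28d (1.84, 0.945 to 4.02), below its shares of 14.1% in WBRT-28d and 10.6% in ShamRT-28d in oligodendrocyte nuclei. At this depth no difference in Cdkn1a or Cdkn2a was detectable.

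Of 19 p53 targets 0 were 1.5-fold higher and 3 were 1.5-fold lower, with a median log2 ratio of 0.02, and with free RNA subtracted 3 were higher and 3 were lower (0.28). Mdm2, which degrades p53, was at 1.19 (0.830 to 1.75), the proapoptotic Bax at 1.17, the death receptor Fas at 1.01 (0.685 to 1.53) and Ccng1 at 1.18. The lower ones were Btg2, described below, the repair gene Xpc (33 UMIs in WBRT-28d and 21 UMIs in ShamRT-28d, 0.420, but 0.85 in nuclei with no UMI of the limited genes) and Trp53inp1 (51 UMIs in WBRT-28d and 23 UMIs in ShamRT-28d, 0.593, 0.356 to 1.02). Among cell cycle inhibitors and senescence genes, Glb1, the lysosomal enzyme behind senescence staining, had 28.3 CPM in WBRT-28d and 66.3 CPM in ShamRT-28d (0.426, 0.292 to 0.628) and ranged from 0.332 to 0.583 over the alternatives. Cdkn1b (p27) was at 0.505 (0.311 to 0.837), and Rb1 and Lmnb1 had intervals that held 1. The antiapoptotic genes Bcl2l1 (0.925) and Mcl1 (0.787) had intervals that held 1, Bcl2l2 had 25 UMIs in WBRT-28d and 2 UMIs in ShamRT-28d, and Bcl2 was at 1.39 (1.03 to 1.89), with shares of 16.6% in WBRT-28d and 10.2% in ShamRT-28d close to those in oligodendrocyte nuclei (16.4% in WBRT-28d and 7.71% in ShamRT-28d). None of the 17 measured genes of the DNA repair list, which did not hold Xpc, had an interval that left out 1.

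Secreted factors were lower in 6 and higher in 1 of 19 measured genes as counted (median log2 ratio -0.26), and lower in 4 and higher in 6 with free RNA subtracted (0.02). Besides Vegfc and Edn1 the lower ones included the plasminogen activator Plat (49.0 CPM in WBRT-28d and 91.7 CPM in ShamRT-28d, 0.534, 0.394 to 0.731) and the cytokine Il15 (0.606). Il6 and Tnf had 2 UMIs each in WBRT-28d and 0 in ShamRT-28d, Cxcl1 had 3 in WBRT-28d, against 0 in ShamRT-28d, and Csf3 0 in both, so that none reached the limit of 3 counts in ShamRT-28d. The summed level of the list was slightly higher (1.05, 1.0 to 1.11), and its most abundant gene was Nrg1, which had 4684 UMIs in WBRT-28d and 841 UMIs in ShamRT-28d (1.49, 1.38 to 1.60). Nrg1 was found in 55.0% of endothelial nuclei in WBRT-28d and 30.8% in ShamRT-28d, against 57.7% of oligodendrocyte nuclei in WBRT-28d and 32.2% in ShamRT-28d. The single higher gene was Hgf, with 32 UMIs in WBRT-28d and 1 UMI in ShamRT-28d. In the cell cycle list 4 of 9 genes were higher and 1 was lower (median 0.32), and with free RNA subtracted 7 were higher and 2 were lower (0.83). The 3 genes with intervals above 1 were the cyclins Ccnd1 (37 UMIs in WBRT-28d and 1 UMI in ShamRT-28d), Ccnd2 (1.57, 1.0 to 2.56) and Ccnd3 (213 CPM in WBRT-28d and 134 CPM in ShamRT-28d, 1.59, 1.28 to 2.0). Ccnd3 was found in 35.4% of endothelial nuclei in WBRT-28d and 20.7% in ShamRT-28d, against 24.8% of oligodendrocyte nuclei in WBRT-28d, against 14% in ShamRT-28d, and lay between 1.55 and 2.18 under the alternatives.

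Immediate early and shear response genes had 473 CPM in WBRT-28d and 762 CPM in ShamRT-28d (0.621, 0.561 to 0.688), with 0 of 15 higher and 5 lower. After free RNA was subtracted 1 was higher and 4 were lower. Their median log2 ratio was -0.46 as counted, 0.01 with free RNA subtracted and 0.00 relative to the identity genes. Dusp1, a phosphatase of stress kinases, had 46 UMIs (17.3 CPM) in WBRT-28d and 41 UMIs (57.9 CPM) in ShamRT-28d, a ratio of 0.30 (0.193 to 0.468). Btg2, an antiproliferative gene induced by p53 and by growth signals, had 160 UMIs (60.3 CPM) in 15.7% of nuclei of WBRT-28d and 118 UMIs (167 CPM) in 27.5% of those of ShamRT-28d, a ratio of 0.362 (0.284 to 0.464), while its shares in oligodendrocyte nuclei were 8.56% in WBRT-28d and 3.56% in ShamRT-28d. Over the alternatives Dusp1 ranged from 0.234 to 0.432 and Btg2 from 0.342 to 0.496. The receptor Nr4a1 was at 0.546 and the matrix protein Cyr61 at 0.410 (23 UMIs in WBRT-28d and 15 UMIs in ShamRT-28d), with a range of 0.368 to 0.982 over the alternatives. The shear-induced factors Klf2 (93.1 CPM in WBRT-28d and 135 CPM in ShamRT-28d, 0.688) and Klf4 (0.710) were at 1.01 and 1.04 with free RNA subtracted, and Jun (0.965) and Egr1 (1.21) had intervals that held 1.

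Many genes of this group are induced through a cyclic AMP response element, and its full palindrome TGACGTCA, which reads the same on both strands, was searched in the RefSeq windows, again after the values were known. It was present in 1.55% of all 32851 windows and in 2 of 18 windows of the list (14 of 19 genes matched), those of Btg2 and Dusp1, which are printed because they were the lower pair with the lowest ratios of the list. The Btg2 window (chr1:134079156-134079405, minus strand) lies upstream of the gene, with the palindrome starting 166 bases before the start. The Dusp1 window (chr17:26508520-26508722, minus strand) lies inside the span of a longer annotated transcript, with the palindrome 143 bases before the start. The match, in capitals, says nothing of whether a factor was bound.
Btg2: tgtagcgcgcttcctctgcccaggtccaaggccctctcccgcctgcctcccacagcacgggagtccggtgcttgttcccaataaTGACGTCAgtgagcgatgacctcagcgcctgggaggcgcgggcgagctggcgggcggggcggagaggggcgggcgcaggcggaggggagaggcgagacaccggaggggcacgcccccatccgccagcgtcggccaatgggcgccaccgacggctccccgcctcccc
Dusp1: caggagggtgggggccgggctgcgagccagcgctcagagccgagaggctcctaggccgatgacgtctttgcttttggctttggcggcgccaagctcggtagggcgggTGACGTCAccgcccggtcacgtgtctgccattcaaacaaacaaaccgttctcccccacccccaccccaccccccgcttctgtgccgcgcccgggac

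Glucocorticoid and clock genes went in both directions. Of 15 glucocorticoid response genes 2 were higher and 3 were lower (median log2 ratio -0.20), and with free RNA subtracted 3 were higher and 4 were lower (-0.13). Zbtb16, a transcription factor induced by glucocorticoids, was at 1.55 (278 CPM in WBRT-28d and 179 CPM in ShamRT-28d, 1.28 to 1.89) and the kinase Sgk1 at 1.79, while the classical targets Fkbp5 (0.913), Tsc22d3 (0.872) and Per1 (0.996) had intervals that held 1. Zbtb16 was also found in 47.5% of oligodendrocyte nuclei in WBRT-28d and 20.5% in ShamRT-28d, against 44.5% of endothelial nuclei in WBRT-28d and 26.2% in ShamRT-28d. Of 17 clock genes 3 were higher and 1 was lower (median -0.01), and with free RNA subtracted 3 of 16 were higher and 2 were lower (0.03). Arntl (BMAL1), the activator of the clock, had 137 UMIs in WBRT-28d and 17 UMIs in ShamRT-28d (2.15, 1.3 to 3.80) and its partner Npas2 240 UMIs in WBRT-28d and 39 UMIs in ShamRT-28d (1.64, 1.17 to 2.37), while Per3, a clock repressor, had 61.1 CPM in WBRT-28d and 106 CPM in ShamRT-28d (0.577, 0.436 to 0.770). Arntl was found in 10.6% of endothelial nuclei in WBRT-28d and 3.93% in ShamRT-28d, below its 17.8% in WBRT-28d and 10.1% in ShamRT-28d in oligodendrocyte nuclei. The time of day at which the mice were killed was not given in the sources used here.

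In the vessel wall, 3 of 25 basement membrane and integrin genes were higher and 4 were lower (median log2 ratio -0.11), against 5 higher and 1 lower with free RNA subtracted (0.25). The collagens Col4a1 (0.894, 0.701 to 1.15) and Col4a2 (1.10) and the laminin chains Lama4 (0.806) and Lamc1 (0.952) had intervals that reached or held 1. Fibronectin (Fn1) was at 0.755 and the protease Adamts1 at 0.481 (40.7 CPM in WBRT-28d and 84.7 CPM in ShamRT-28d, 0.348 to 0.671). The transition genes Zeb1 (1.0, 0.893 to 1.13) and Vim (1.04) were at the background level. Of hypoxia and glycolysis genes, Ndrg1 was at 0.494 (0.402 to 0.609) and Pfkfb3, the glycolytic regulator, at 0.455 (46 UMIs in WBRT-28d and 27 UMIs in ShamRT-28d), while Epas1, the endothelial hypoxia factor, had 427 CPM in WBRT-28d and 483 CPM in ShamRT-28d (0.885, 0.784 to 1.0). All 8 mitochondrial messenger RNAs had intervals above 1, from mt-Nd2 at 1.24 to mt-Nd4 at 1.98, and were in turn more frequent in oligodendrocyte nuclei in WBRT-28d (mt-Nd4 in 46.3% of them in WBRT-28d and 23.6% in ShamRT-28d). These RNAs are made in mitochondria and not in the nucleus.

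Markers of neighbouring cell types moved with the comparison, and their part in it was not tested. All 6 measured mural markers were 1.5-fold higher as counted (median log2 ratio 1.54) and 5 with free RNA subtracted (1.97), where 1 was lower. In nuclei with no UMI of the limited genes 4 were higher and the median was 0.77. As counted they had 243.6 CPM in WBRT-28d and 84.7 CPM in ShamRT-28d in sum. Rgs5, a pericyte gene, had 254 UMIs in 10.2% of endothelial nuclei in WBRT-28d and 28 UMIs in 3.28% in ShamRT-28d (2.42, 1.64 to 3.72), against 4.0% of oligodendrocyte nuclei in WBRT-28d, against 0.902% in ShamRT-28d, and Vtn 139 UMIs in WBRT-28d and 9 UMIs in ShamRT-28d (4.13). Of the mural genes that the rule limits, 1 was detected in 94 endothelial nuclei of WBRT-28d (10.6%) and 9 of ShamRT-28d (2.95%). Astrocyte markers were higher in 5 of 8 (median 0.72 as counted, -1.90 over the 7 with a value once free RNA was subtracted). Oligodendrocyte precursor markers were higher in 6 of 8 (1.0 as counted, -2.16 over the 3 with a value after subtraction). The 4 measured choroid plexus and ependymal markers were all higher, led in UMIs by Ttr with 727 UMIs in WBRT-28d and 118 in ShamRT-28d (1.65). Neuron markers were higher in 1 of 8, and 7 intervals lay above 1. Microglia markers were lower in 5 of 7 (median -0.77 as counted, -1.83 with free RNA subtracted), but not in nuclei with no UMI of the limited genes, where the median was 0.56. Oligodendrocyte markers were lower in 2 of 7, fibroblast markers higher in 2 and lower in 1 of 5, and blood markers higher in 1 of 3.

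**Figure D5:**
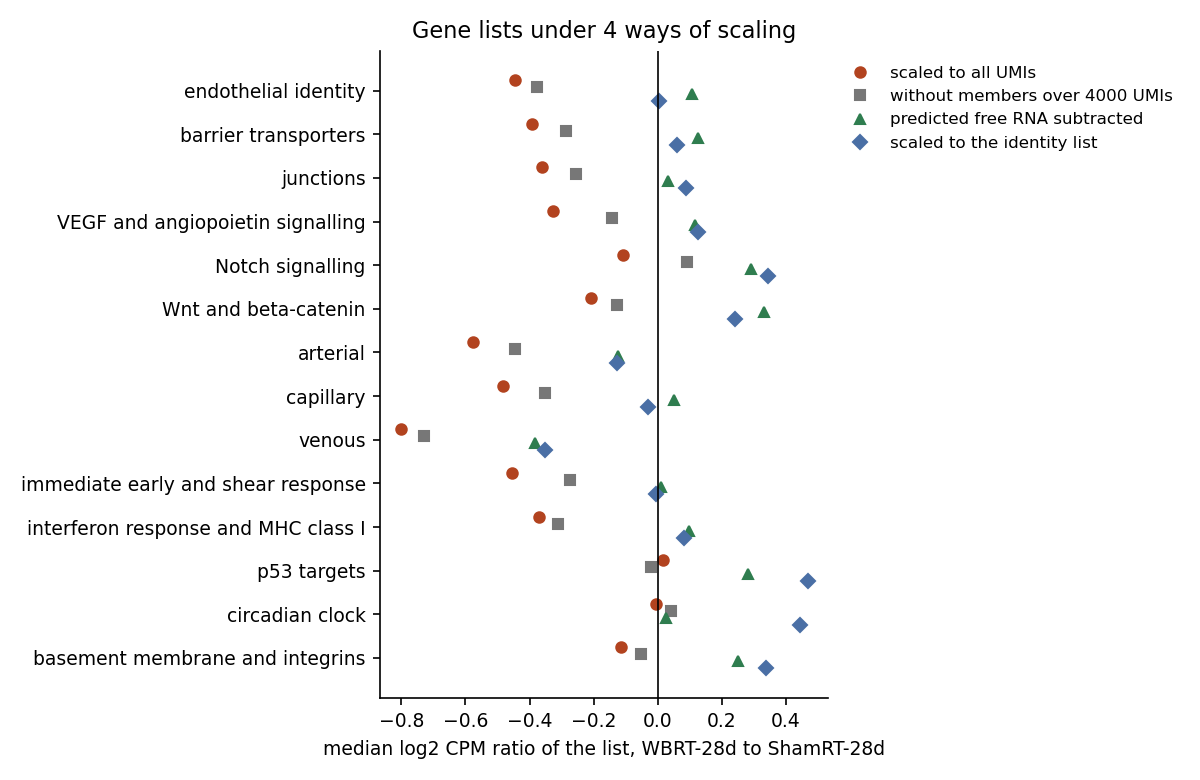
Median log2 ratio of CPM in WBRT-28d to CPM in ShamRT-28d (x axis) over the measured genes of each plotted list in endothelial nuclei. Symbols show values as counted, without nuclei above 4000 UMIs, with predicted free RNA subtracted, and scaled to the identity genes. Endothelial lists lay below 0 as counted (identity -0.45, venous -0.80), and the identity median was 0.11 after free RNA was subtracted.

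The genes with the interval bound farthest from 1 were taken from 3845 genes with at least 100 UMIs, whose endothelial level had to reach that of the whole library only in the library where it was higher. Of the 10 higher genes, 8 were below the library level in ShamRT-28d, all but Rgs5 and Pcp4l1, and so passed only through WBRT-28d. Of the 10 lower genes, 1 was below it in WBRT-28d, Nwd2. Of the 10 higher genes, 9 were at least as frequent in oligodendrocyte nuclei, stemmed from a few nuclei, or are mural or choroid plexus genes. Trpm3, an ion channel of the choroid plexus, was at 2.04 (3875 UMIs in WBRT-28d and 507 in ShamRT-28d) with 71.8% of its ShamRT-28d UMIs in 3 nuclei, the cilia gene Spag16 at 5.61 with 44.8% of its WBRT-28d and 80.0% of its ShamRT-28d UMIs in 3 nuclei, and Ptgds, prostaglandin D synthase, at 1.92 with a range of 1.01 to 4.10 over the alternatives. The kinase gene Camk1d was at 1.85 in 80.1% of endothelial nuclei in WBRT-28d and 49.2% in ShamRT-28d, against 80.3% of oligodendrocyte nuclei in WBRT-28d and 60.1% in ShamRT-28d. Vtn and Rgs5 are described above, Ccbe1 (4.21) and Vat1l (2.38) were in a larger share of oligodendrocyte than of endothelial nuclei in both libraries, and all 11 ShamRT-28d UMIs of the noncoding RNA Otx2os1 (3.18) were in 3 nuclei. Pcp4l1 remained, with 257 UMIs in 21.8% of endothelial nuclei of WBRT-28d and 30 UMIs in 9.51% of those of ShamRT-28d (2.29, 1.57 to 3.46), against 5.23% (WBRT-28d) and 2.48% (ShamRT-28d) of oligodendrocyte nuclei, and between 1.83 and 3.41 under the alternatives. Mural nuclei also held it, at 42.6 CPM in WBRT-28d and 46.3 CPM in ShamRT-28d, against 96.9 CPM in WBRT-28d and 42.3 CPM in ShamRT-28d in endothelial nuclei.

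The 10 lower genes were mostly endothelial and spread over many nuclei. Gch1, the first enzyme in the synthesis of tetrahydrobiopterin, the cofactor of nitric oxide synthase, had 117 UMIs (44.1 CPM) in 11.1% of endothelial nuclei of WBRT-28d and 80 UMIs (113 CPM) in 19.3% of those of ShamRT-28d, a ratio of 0.391 (0.292 to 0.526, and 0.372 to 0.623 over the alternatives), and was in 0.515% (WBRT-28d) and 0.0451% (ShamRT-28d) of oligodendrocyte nuclei. Ctla2a, a cysteine protease inhibitor, had 50.5 CPM in WBRT-28d and 133 CPM in ShamRT-28d (0.381, 0.290 to 0.501), and Clec2d, a lectin that binds a receptor of natural killer cells, 496 UMIs in 38.5% of nuclei in WBRT-28d and 275 UMIs in 50.5% in ShamRT-28d (0.482, 0.415 to 0.561). The leukotriene receptor Cysltr1 was at 0.305 (88 UMIs in WBRT-28d and 77 UMIs in ShamRT-28d), the exchange factor Net1 at 0.335, and Sepp1, the selenium carrier selenoprotein P, at 0.452. With S1pr1 and Btg2 these were 8 of the 10, and with predicted free RNA subtracted their ratios were 0.417 to 0.704, the highest that of Clec2d. Each was below 1 under all 11 alternatives, but the genes were chosen by low ratios in the same UMIs that the alternatives reuse, so this is no independent support. For Nwd2 (0.263), 85.8% of the ShamRT-28d UMIs were in 3 nuclei, and its share was higher in oligodendrocyte nuclei (14.1% in WBRT-28d and 7.30% in ShamRT-28d) than in endothelial nuclei (9.26% in WBRT-28d and 5.90% in ShamRT-28d). Sepp1 was also frequent in oligodendrocyte nuclei, with 23.9% in WBRT-28d and 24.1% in ShamRT-28d. Its share of endothelial nuclei was 21.3% in WBRT-28d and 30.5% in ShamRT-28d. Cysltr1 had 32.5% of its ShamRT-28d UMIs in 3 nuclei.

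The named endothelial genes lie on several chromosomes in GRCm38 (GENCODE M21), and UMIs could come from exons or introns along the whole span. Slc2a1 lies at chr4:119108711-119137983 (plus strand), S1pr1 at chr3:115710433-115715072 (minus strand), Gch1 at chr14:47153895-47189413 (minus strand), Btg2 at chr1:134075170-134079120 (minus strand), Il1r1 at chr1:40225080-40317257 (plus strand), Erg at chr16:95359169-95586593 (minus strand) and Pecam1 at chr11:106654217-106750628 (minus strand).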

How the data were processed

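Nuclei were profiled in 2 libraries by droplet snRNA-seq. Reads had been aligned by the authors with Cell Ranger, using a custom mm10 reference of whole pre-mRNA, so that intron reads were counted and long genes were favoured, and the authors deposited raw UMI counts per gene and barcode with no normalization, cell type names or map to mice. Kit chemistry was version 2 of the 3′ assay by the labels. Seurat 3.0 and R 3.5.3 are further tools in the submitters' notes. Depth and filters are given in the report.

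UMIs of the endothelial nuclei were summed per library and scaled to CPM. A CPM ratio has an exact conditional binomial interval and a share a Clopper-Pearson interval (95%), both for counting error only. Genes needed at least 50 UMIs over both libraries, or 20 for the 35 lists, and the threshold was 1.5-fold. For a gene at 0 the limit was 3 counts per library. No test between conditions was made, since each had 1 library. Named genes were those of the rule and the identity list, up to 4 members per list with the most UMIs and those past 1.5-fold with an interval that excludes 1, the genes named by the study, and the 10 genes per direction with the interval bound farthest from 1 among those with at least 100 UMIs and an endothelial CPM at or above the library's where it was higher, without mitochondrial and predicted genes. Other genes named beside them were chosen after their values were seen. The members and the lists were chosen with earlier results of these data known. Free RNA was predicted from 8 neuron genes, taken as wholly foreign to endothelium: their CPM in a class over that in the library, times a gene's CPM in the library. Doublets were called by Scrublet per library at 0.8% per 1000 barcodes (12.8% in WBRT-28d and 9.18% in ShamRT-28d expected, 10.2% in WBRT-28d and 6.09% in ShamRT-28d called) and were left out only as an alternative. The alternatives were stricter rules for nuclei, thinning, free RNA, scaling, weighting, UMI minimums and a 2-fold threshold, and those without nuclei over 4000 UMIs, without nuclei below the lowest WBRT-28d count and scaled to the identity genes were chosen after the data were seen. Results for some items are not reported here. Some genes carry older symbols in the data (Sepp1, Sdpr). Steps were tested on simulated data. Tools were scanpy 1.11.5, scipy 1.17.1, pandas 2.3.3, numpy 2.4.6 and matplotlib 3.10.9 under Python 3.11.15.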

Additional observations from a re-analysis of the deposited data

How the results depend on the processing

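The share ratio of endothelial nuclei stayed above 1 under every alternative for nuclei, from 1.59 with no UMI of the mural and other-type genes to 2.59 without nuclei below the lowest WBRT-28d UMI count. After thinning, which left fewer genes to count, 379 of 4545 were lower, a share close to the 736 of 8944 as counted. With the mean over nuclei 1465 of 8944 were higher, against 945 as counted. Scaled to the identity genes, 3279 were higher and 122 lower. A minimum of 20 UMIs gave 1614 higher and 1331 lower of 11894, a minimum of 200 gave 274 and 152 of 3576, and a 2-fold threshold 295 and 138. The cause of these shifts was not tested beyond the number of genes counted.

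Several named genes nearer to 1 as counted crossed 1 once free RNA was subtracted. Among them were Flt1 (CPM ratio 0.772 as counted and 1.15 after) and Cdh5 (0.732 and 1.07). The median log2 ratio of the identity list likewise went from -0.45 to 0.11. Reversals were counted only for named genes past 1.5-fold as counted, and the log2 ratios of few of these turned round. Bnc2 was at 2.57 with at least 4 rule genes, 1.90 with no UMI of the limited genes, 1.27 thinned, 0.18 as the mean over nuclei and 2.80 without nuclei over 4000 UMIs. With no UMI of the limited genes C1qa was at 0.72, Jag1 at 0.0021, Opalin at 0.20, P2ry12 at 0.57 and the microglia median at 0.56. Thinned, C1qa was at 0.024, Lrp6 at -0.12 and Mag at 0.16, and Opalin was at 0.28 without nuclei over 4000 UMIs. Once free RNA was subtracted, Cspg4 was at -2.25, Ntsr2 at -1.90 and Slc1a3 at -6.12. The astrocyte median was then at -1.90 (7 genes) and the oligodendrocyte precursor median at -2.16 (3 genes). The subtraction of free RNA moved 21 further list medians, left 9 within 0.3 of their value and gave none for the neuron, oligodendrocyte and choroid plexus markers, and the identity scaling moved all 35. No paired analysis was possible because each condition has 1 library, and no replicate could be left out. At 305 nuclei, genes under 20 UMIs could not be compared.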

Other observations

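Some nuclei met the endothelial part of the rule and failed the rest. At least 3 of the 7 endothelial genes with more than 1 gene of another type were detected in 286 nuclei of WBRT-28d and 46 of ShamRT-28d, with median UMI counts of 11157.5 in WBRT-28d and 8629 in ShamRT-28d. Scrublet marked 40.2% of them in WBRT-28d and 54.3% in ShamRT-28d. More than 1 mural gene was detected beside them in 51 nuclei of WBRT-28d and 6 of ShamRT-28d.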
